A study of Drosophila melanogaster with 12 samples.

Results

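Cytochrome c oxidase, complex IV of the mitochondrial respiratory chain, is built from subunits encoded in the nucleus and subunits encoded in mitochondrial DNA. The nuclear-encoded subunits CoIV, CoVa, CoVb, CoVIb, CoVIII, cype and levy were followed here in the larval fat body on 4 diets. They were taken from the gene table by their exact symbols, and all 7 were found among its 9500 genes. All libraries came from fat bodies of female wandering third-instar Drosophila melanogaster larvae. Per the strain label they were the progeny of w1118 males and UAS-Dcr2; r4-GAL4 females, so that every group, controls included, carried Dicer-2 under the r4-GAL4 fat body driver. The growth notes of the labels also speak of RNAi against InR, the insulin receptor, although the stocks named in them carry no such construct; the libraries were taken as the control genotype. The larvae were raised on a control fructose diet with 0.3 M of the sugar (CFD), a high fructose diet with 1.7 M (HFD), a control glucose diet with 0.3 M (CGD) or a high glucose diet with 1.7 M (HGD). There were 3 biological replicates per diet and 12 libraries of rRNA-depleted total RNA in all. The question asked of the design was how a high concentration of each sugar changed expression relative to its own control.

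Complex IV takes electrons from reduced cytochrome c and passes them to oxygen, pumping protons across the inner mitochondrial membrane, and the ATP synthase uses the resulting gradient. Its catalytic core consists of the mitochondrially encoded subunits I, II and III, which hold the heme and copper centres. The nuclear-encoded subunits are made in the cytosol, imported and assembled around this core, where they serve stability, assembly and regulation. The insect fat body combines functions of liver and adipose tissue, including lipid synthesis and storage.

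CoIV (FBgn0032833, now COX4), subunit IV, is in mammals the subunit through which ATP inhibits the enzyme. It lies at 2L, 19958713 to 19960065, plus strand, in the BDGP6.54 annotation, which is not the authors' build. CoVa (FBgn0019624, now COX5A), a matrix-facing subunit, lies at 3R, 11819359 to 11820299, plus strand, and shares 62 bases with the antisense gene glo. CoVb (FBgn0031830, now COX5B), the zinc-binding matrix subunit, lies at 2L, 6557800 to 6559308, plus strand. CoVIb (FBgn0031066, now COX6B) sits on the intermembrane-space side of the enzyme and lies at X, 19740537 to 19744335, minus strand. It shares 3112 bases of its span with CG18809 on the same strand, a gene with a mean value of 63.1, so reads could have been split between them and the CoVIb values are uncertain to that extent. CoVIII (FBgn0263911, now COX8), a small membrane-spanning subunit, lies at 3L, 21538859 to 21539447, minus strand. The gene cype (FBgn0015031), cyclope, encodes subunit VIc and lies at 2L, 5327227 to 5327969, plus strand. The gene levy (FBgn0034877) encodes subunit VIa, whose loss in flies causes seizure-like behaviour and neurodegeneration, lies at 2R, 23548239 to 23548982, plus strand, and shares 16 bases with the antisense gene pita. Whether counting used strand is not stated, so for CoVa and levy the reads of the antisense overlaps cannot be told apart.

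Values are the read counts per gene as the authors normalised them to a common library size. The glucose libraries were multiplied by a factor of 0.88 so that the median gene did not differ between the sugars. Whole reads could be worked back from the table and gave 3484911 (HFD replicate 2) to 11134936 (HFD replicate 1) reads in listed genes per library. The ribosomal RNA gene CR41548 took 8.67% of these reads in HFD replicate 2 and at most 0.306% in any other library. Shares of reads, here and below, are shares of the reads in listed genes. The 7 subunits were covered by between 72 reads (CoVIII in HFD replicate 2) and 2094 reads (CoVa in HGD replicate 2). All 7 were measured in every library, passed the filter on low values (a mean of at least 1, which removed 0 genes), and together took 0.0469 to 0.0810% of the reads. Fat body markers (7 genes) made up 19.3 to 35.5% of the summed value of a library and muscle markers (17 measured of 19 listed) 0.0964 to 0.464%.

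The levels of the subunits mostly followed a common order. Per kilobase of exon, CoVa had the highest mean level over the 12 libraries (1650 ± 322, SD), followed by levy (1174 ± 210), CoVIb (886 ± 188), cype (842 ± 158), CoIV (832 ± 232), CoVb (591 ± 103) and CoVIII (529 ± 98.7). CoVa exceeded levy, levy exceeded CoVIb, and CoIV exceeded CoVb in 12 of 12 libraries. CoVIb exceeded cype in 10 libraries and CoVb exceeded CoVIII in 11. Between cype and CoIV the order differed by diet: cype was higher in 6 of 6 control libraries, and CoIV was higher in 5 of 6 high-sugar libraries. On the same scale CoIV averaged 650 on CFD and 650 on CGD against 901 on HFD and 1125 on HGD.

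CoIV was the subunit with the largest difference between high-sugar and control diets. Its normalised value was 819, 846 and 736 in the 3 CFD libraries and 1271, 1130 and 928 in the 3 HFD libraries. It was 671, 741 and 991 on CGD and 1331, 1583 and 1242 on HGD. Every high-sugar library lay above every control library of the same sugar. Of the 7 subunits, CoIV was the only one whose groups were apart in this way for both sugars, a pattern that 13.9% of all genes showed in the upward direction. The mean was 800 ± 57.5 on CFD and 1110 ± 172 on HFD (SD, n = 3), and 801 ± 168 on CGD and 1385 ± 177 on HGD.

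**Figure D1:**
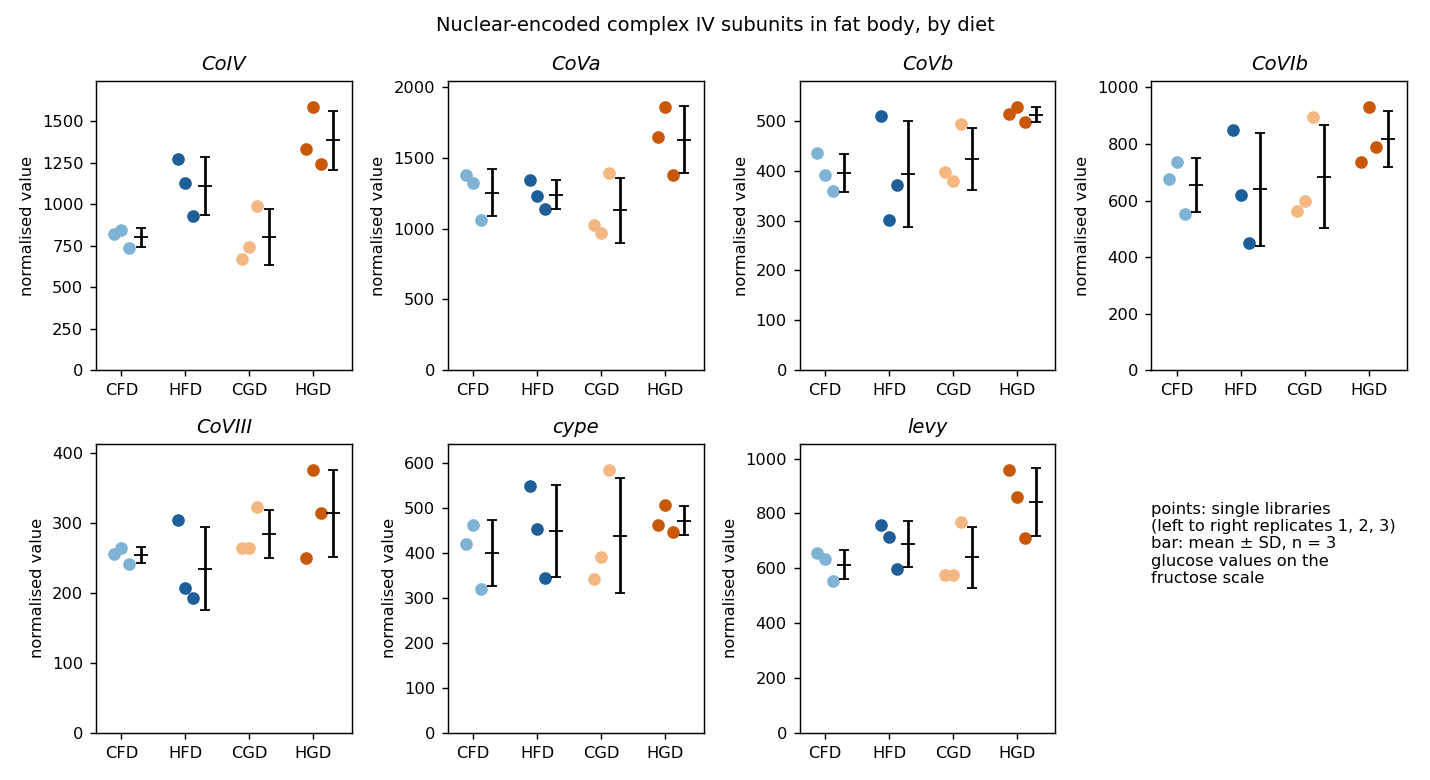
Normalised value of each nuclear-encoded complex IV subunit (vertical axis, starting at 0) in the 3 libraries of each diet (horizontal axis), with the mean and SD as a bar beside the points. CoIV lies higher in every HFD library (928 to 1271) than in any CFD library (736 to 846), and higher in every HGD library (1242 to 1583) than in any CGD library (671 to 991).

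On high fructose no subunit passed the test. Significance was determined with limma on log2(value + 1), fitted across all 9500 genes with Benjamini-Hochberg adjustment and a threshold of 0.05; on this scale a fold change of low genes is understated. HFD against CFD gave 0 of 7 subunits called, where 19.3% of all genes were called and 9.4% were called upward. At an unadjusted p under 0.05 the count was 1 of 7 against 33.6% of all genes, and limma-voom on the recovered reads also called 0 and had 1 at an unadjusted p under 0.05. The subunit nearest to the threshold was CoIV, with a log2 fold change of 0.46 (SE 0.17, 95% interval 0.10 to 0.83, limma adjusted p = 0.0735). The 95% intervals of the subunits reached 0.35 to 0.49 on either side of the estimate on the log2 scale. These intervals are not adjusted for the number of genes. Changes of this size could also be missed with these libraries, as the 0.46 of CoIV was not called.

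The other subunits showed mixed signs on high fructose. The log2 fold change was 0.16 for cype and for levy, -0.01 for CoVa, -0.03 for CoVb, -0.07 for CoVIb and -0.14 for CoVIII. In all 6 of these subunits the HFD and CFD libraries overlapped, which left CoIV as 1 of 7 with groups apart upward, against 19% of all genes. The median over the 7 subunits was -0.01, beside -0.02 over all genes. For some subunits the HFD libraries were more scattered than the CFD libraries. The SD of log2 values was 0.46 for CoVIb, 0.38 for CoVb, 0.35 for CoVIII and 0.34 for cype on HFD, against 0.06 to 0.28 for these 4 subunits on CFD. For CoVa it was smaller on HFD (0.12 against 0.20), and the median over all genes was 0.24 on HFD and 0.22 on CFD.

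On high glucose, CoIV and CoVa rose. HGD against CGD gave 2 of 7 subunits called, both upward, where 29.6% of all genes were called and 16.7% were called upward. At an unadjusted p under 0.05 the count was 3 of 7, with levy added, against 41.7% of all genes. CoIV had a log2 fold change of 0.80 (SE 0.17, 95% interval 0.44 to 1.17, limma adjusted p = 0.00356), a 1.74-fold higher level. Without any single library, and under every other setting tried, this call held, with log2 fold changes between 0.58 and 0.97 over 16 alternatives. Among these, the fit with no filter repeated the main fit. Leaving out the factor between the sugars could hardly change a comparison within a sugar.

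CoVa, whose loss in the fly lowers ATP and arrests the cell cycle, was the other subunit called on high glucose. Its value was 1029, 969 and 1393 on CGD and 1649, 1857 and 1381 on HGD, and 1379, 1320 and 1063 on CFD and 1344, 1233 and 1141 on HFD. HGD replicate 3 lay just under CGD replicate 3, so the glucose groups overlapped, and the fructose groups covered the same range. The log2 fold change on glucose was 0.54 (SE 0.17, 95% interval 0.17 to 0.90, limma adjusted p = 0.0306), a 1.45-fold higher level. The call was kept in 9 of 16 alternatives (adjusted p between 0.00741 and 0.233), and was lost without CGD replicate 1 (adjusted p = 0.105), CGD replicate 2 (0.129), HGD replicate 1 (0.0621) or HGD replicate 2 (0.110).

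The remaining 5 subunits all had positive log2 fold changes on high glucose that did not pass the threshold; cype was at -0.02 without CGD replicate 1 and CoVIII at -0.01 without HGD replicate 2. The gene levy, at 575, 576 and 767 on CGD and 958, 859 and 711 on HGD, had 0.40 (SE 0.16, limma adjusted p = 0.0767). HGD replicate 3 of levy lay below CGD replicate 3, so the groups overlapped; without CGD replicate 3 its log2 fold change was 0.54 (adjusted p = 0.0240), and without HGD replicate 3 it was 0.52 (adjusted p = 0.0493). CoVb, at 397, 378 and 494 on CGD and 514, 527 and 497 on HGD, had groups just apart and a log2 fold change of 0.28 (SE 0.18, limma adjusted p = 0.243). Groups were apart upward for 2 of 7 subunits, CoIV and CoVb, against 24% of all genes. CoVIb had 0.28, cype 0.14 and CoVIII 0.13, each with overlapping groups and limma adjusted p between 0.372 and 0.654. The median over the 7 subunits was 0.28, beside 0.01 over all genes, and it was 0.49 without CGD replicate 3.

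**Figure D2:**
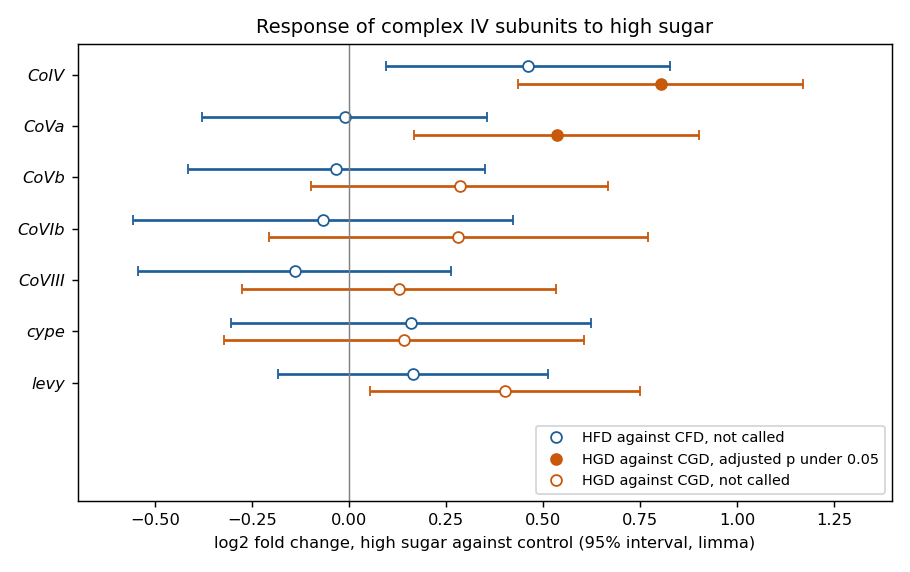
Log2 fold change of each subunit (horizontal axis) for HFD against CFD and HGD against CGD, with 95% intervals from limma (bars); filled points passed an adjusted p of 0.05. The filled points are CoIV (0.80) and CoVa (0.54) on high glucose, and no subunit is filled on high fructose.

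Averaged over both sugars, 1 of 7 subunits was called, CoIV, where 41.9% of all genes were called and 21.2% were called upward. Its log2 fold change was 0.63 (SE 0.12, 95% interval 0.37 to 0.89, limma adjusted p = 0.000996), and the call held in 21 of 21 alternatives. CoVa (0.26, adjusted p = 0.0971) and levy (0.28, adjusted p = 0.0616) did not pass, and CoVIII stood at -0.01; at an unadjusted p under 0.05 the count was 3 of 7, CoVa and levy included, against 50.2% of all genes. Without CGD replicate 3, in which all 7 subunits stood highest of the CGD libraries, the count was 3, with CoVa and levy added, and without HFD replicate 3 or HGD replicate 3 it was 2, with levy added.

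Scaling every library to its total moved the median of all genes to -0.21 (HFD) and -0.20 (HGD) on the log2 scale. On that scale CoIV had a log2 fold change of 0.26 on fructose and 0.58 on glucose, CoVa had -0.21 and 0.32, and only CoIV on glucose was called. Under this scaling cype and levy had negative log2 fold changes on fructose (-0.04 and -0.03), as did cype and CoVIII on glucose (-0.08 and -0.09), and the median over the 7 subunits was -0.21 on fructose and 0.07 on glucose.

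The glucose and fructose responses of the subunits were not shown to differ. The log2 fold change on glucose exceeded that on fructose by 0.55 for CoVa (95% interval 0.03 to 1.07, unadjusted p = 0.0405, limma adjusted p = 0.937) and by 0.34 for CoIV (95% interval -0.18 to 0.86, limma adjusted p = 0.937). The other differences lay between -0.02 (cype) and 0.35 (CoVIb). The test of the difference called 0 of 7 subunits and 0% of all genes, and 1 subunit against 4.26% of all genes had an unadjusted p under 0.05, while limma-voom called 0 and had 0 at an unadjusted p under 0.05. The intervals of this difference reached 0.49 to 0.69 on either side of the estimate.

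The control diets were close for these genes. CGD against CFD called 0 of 7 subunits and 0% of all genes with limma, and 0 of 7 subunits had an unadjusted p under 0.05 against 4.06% of all genes; limma-voom also gave 0 and 0. The log2 fold changes ran from -0.16 (CoVa) to 0.16 (CoVIII). CoVIII, at 256, 264 and 242 on CFD and just above at 264, 264 and 323 on CGD, was the 1 subunit with groups apart upward (3.56% of all genes). Between the high-sugar diets, all 7 subunits were higher on HGD than on HFD, with log2 fold changes from 0.09 (cype) to 0.42 (CoVIII). The median was 0.39, beside 0.02 over all genes. Without HFD replicate 3 cype was at -0.08 and the median over the 7 subunits was 0.20. All 8 complex III, 11 complex I and 10 ATP synthase genes measured were also higher on HGD, with medians of 0.36, 0.35 and 0.33. HGD against HFD again called 0 of 7 subunits and 0% of all genes (limma adjusted p 0.883 to 0.961), with 3 subunits, CoVa, CoVb and CoVIII, at an unadjusted p under 0.05 (5.12% of all genes). Groups were apart upward for 1 subunit, CoVa, against 5.37% of all genes. Limma-voom gave 0 called and 1 at an unadjusted p under 0.05. The paper reports that its exact test called a few genes between the control diets, and CG6602 between the high-sugar diets. None of them is among the 7 subunits. Levels across the sugars rest on the 0.88 factor, since the tables for the sugars were normalised separately; without it the median of all genes was 0.20 for this comparison.

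Within a library, CoIV stood higher relative to its partner subunits on both high-sugar diets. The log2 level of CoIV minus the mean log2 level of the other 6 subunits was 0.57, 0.61 and 0.69 on CFD and 0.97, 1.18 and 1.06 on HFD. It was 0.49, 0.61 and 0.57 on CGD and 1.05, 1.12 and 1.01 on HGD. All 6 high-sugar libraries lay above all 6 control libraries, with a difference between their means of 0.48 on the log2 scale (SDs 0.07 and 0.07, n = 6 each). The same measure overlapped between high-sugar and control libraries for each of the other 6 subunits, with differences from -0.27 (CoVIII) to 0.07 (levy). A difference between genes of a single library does not depend on the library's scaling. This view was chosen after the values were seen and is given without a test. The share of all genes that would lie apart on this measure was not determined.

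**Figure D3:**
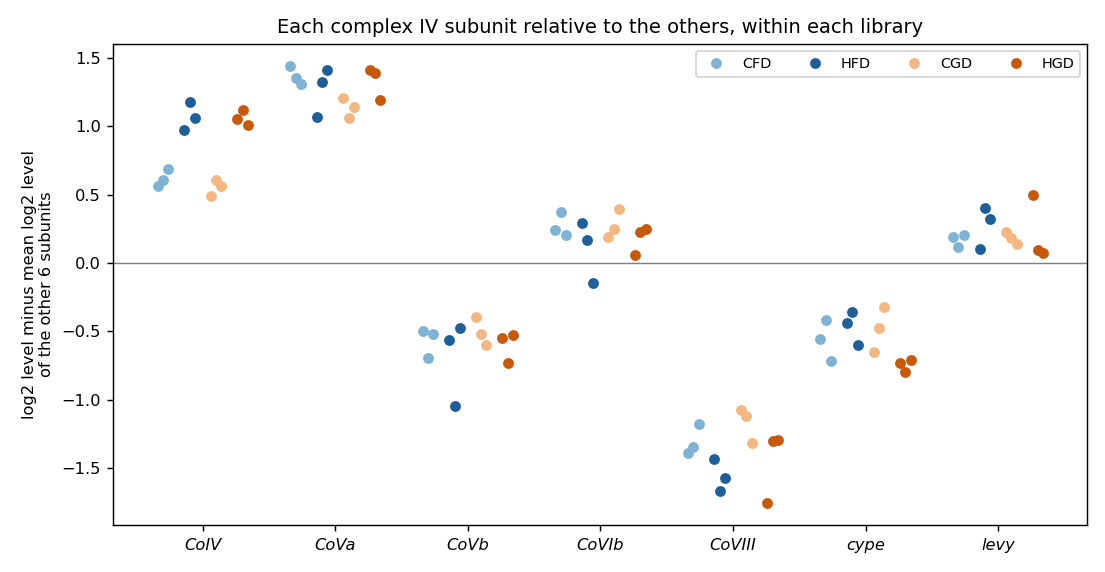
Log2 level of each subunit minus the mean log2 level of the other 6 subunits of the same library (vertical axis), by subunit (horizontal axis) and diet (colour), 3 libraries per diet. For CoIV the high-sugar libraries (0.97 to 1.18) lie above the control libraries (0.49 to 0.69), and for the other 6 subunits they overlap.

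The subunits also moved together among replicates of a diet. With each library expressed as its deviation from the mean of its diet, all 21 pairs of subunits were positively correlated across the 12 libraries (Pearson r 0.36 to 0.96, median 0.75), a description of genes that share libraries and their scaling. In CGD replicate 3 all 7 subunits lay above the diet mean, by 0.32 on average on the log2 scale, and in HFD replicate 1 by 0.29. All 7 lay below it in CFD replicate 3, HFD replicate 3, CGD replicate 1 and CGD replicate 2. In reads, by contrast, the CGD libraries were alike: CoVa had 1427, 1419 and 1454 reads, CoIV 931, 1084 and 1034, and the 7 subunits together 0.0599 to 0.0618% of the reads. The share was 0.0563 to 0.0626% on CFD, 0.0469 to 0.0708% on HFD and 0.0661 to 0.0810% on HGD. On this scale HGD lay above CGD without overlap and HFD covered the range of CFD. This sum gives most weight to the subunits with most reads. With each library scaled to its total, the median log2 fold change over the 7 subunits on glucose was 0.07, and cype and CoVIII were negative. How many of all genes lay apart in their share of reads was not determined.

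The genes whose pattern was most like the mean of the 7 subunits were ATPsyn-beta (the catalytic beta subunit of ATP synthase, Pearson r 0.97), CG4670 (0.96), Papst2 (0.96), CG8331 (0.94) and CG7966 (0.94). These r values are over 12 libraries centred within each sugar, among the 4671 genes whose mean value reached 100. Of these, 210 had r above 0.8, and the median r over all 4671 was 0.26. By the same measure a subunit's likeness to the mean of the other 6 ran from 0.65 (CoVIII) to 0.90 (CoVIb).

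Of the 3 mitochondrially encoded core subunits, mt:CoI and mt:CoIII fell when both sugars were averaged and mt:CoII did not pass, where 20.7% of all genes were called downward. The value of mt:CoI, which carries the site of oxygen reduction, was 105950, 75132 and 44028 on CFD and 30233, 40987 and 51625 on HFD. It was 80082, 72468 and 95267 on CGD and 73889, 26088 and 31051 on HGD. HFD replicate 3 overlapped CFD, and HGD replicate 1 lay inside the CGD range while the other HGD libraries lay far below it. Averaged over both sugars, mt:CoI fell by 0.94 on the log2 scale (SE 0.29, limma adjusted p = 0.0195), and the call was lost without CFD replicate 1 (-0.80, adjusted p = 0.0572), HGD replicate 2 (adjusted p = 0.0523) or HGD replicate 3 (0.0502). For mt:CoIII the averaged change was -0.998 (SE 0.29, adjusted p = 0.0147, called in 21 of 21 alternatives). The groups of mt:CoIII also overlapped within each sugar, at 34995 to 84849 on CFD and 21645 to 41502 on HFD. On glucose they ran from 58350.5 to 71914 on CGD and from 21207 to 58749 on HGD, highest in HGD replicate 1. For mt:CoII, which receives electrons from cytochrome c, the averaged change was -0.69 (adjusted p = 0.116). The value of mt:CoII was 17985, 11240 and 7573 on CFD, 5392, 10154 and 11318 on HFD, 15602, 13207 and 16289 on CGD and 19705, 4695 and 5009 on HGD. Its groups overlapped, and HGD replicate 1 was the highest of the 12 libraries. Within each sugar 0 of the 3 core subunits were called, with log2 fold changes from -0.93 to -0.43 on fructose and -1.07 to -0.95 on glucose.

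The distance between core and nuclear-encoded transcripts was accordingly smaller on high sugar. The log2 level of mt:CoI minus the mean log2 level of the 7 nuclear-encoded subunits was 6.49 to 7.50 in CFD libraries and 5.40 to 6.71 in HFD libraries, which overlapped. It was 7.07 to 7.32 in CGD libraries and 5.0 to 6.70 in HGD libraries, which did not. In whole fat bodies, fewer cells or mitochondria of a kind and less RNA in each cannot be told apart.

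Of 7 further nuclear genes listed as complex IV subunits or paralogs, 3 were measured and 0 were called in any comparison of high sugar with control. CG9603, which encodes subunit VIIa, had log2 fold changes of 0.36 on fructose and 0.37 on glucose (limma adjusted p = 0.279 and 0.225). CoVIIc, subunit VIIc, had -0.31 and -0.27 (adjusted p = 0.350 and 0.357). The CoVb paralog CG11043 was barely expressed, with a mean value of 4.6 against 431 for CoVb.

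Among 6 factors that assemble complex IV, all measured, 0 were called on fructose and 2 rose on glucose, where 9.4% and 16.7% of all genes were called upward. Scox, which delivers copper to the enzyme, was at 59.1, 55.2 and 61.3 on CGD and 98.0, 106 and 78.3 on HGD, groups that did not overlap, with a log2 fold change of 0.67 (SE 0.18, limma adjusted p = 0.0144). CG5037, the COX10 homolog of heme A synthesis, had 0.56 (adjusted p = 0.0215). With scaling to library totals 0 of the 6 were called. Scox also lost its call without CGD replicate 2 (adjusted p = 0.0560) or HGD replicate 2 (0.0580), and CG5037 without CGD replicate 1 (0.0552), CGD replicate 2 (0.0617) or HGD replicate 3 (0.0615).

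Cytochrome c, the electron donor of complex IV, rose on both sugars. The gene Cyt-c-p, the somatic cytochrome c, was at 138, 105 and 104 on CFD and 323, 226 and 179 on HFD, and at 111, 153 and 131 on CGD and 316, 318 and 280 on HGD. Every high-sugar library lay above every control library. The log2 fold change was 1.03 on fructose (SE 0.21, limma adjusted p = 0.00365) and 1.22 on glucose (SE 0.21, adjusted p = 0.000782), called in 16 of 16 alternatives each. Cyt-c-d was looked up and was not among the 9500 genes.

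The neighbouring complexes also held more called genes on glucose than on fructose, as did all genes (16.7% against 9.4% called upward), and the test of the difference between the sugars called 0% of all genes. Of 8 complex III genes measured, 0 were called on fructose (median log2 fold change 0.43) and 6 rose on glucose (median 0.73), led by CG3731 (1.02), CG14482 (0.96), the Rieske iron-sulfur protein RFeSP (0.87) and CG4169 (0.76). Of 11 complex I genes measured, 2 rose on fructose (CG12079, 0.65, and ND23, 0.52; median 0.26) and 6 on glucose (median 0.61), led by CG12079 (0.98), ND23 (0.89), CG9140 (0.75) and ND75 (0.72). Of 10 ATP synthase genes, 1 rose on fructose (ATPsyn-Cf6, 0.67; median 0.23) and 6 on glucose (median 0.53), led by ATPsyn-b (0.82), ATPsyn-gamma (0.69), ATPsyn-Cf6 (0.69) and the alpha subunit blw (0.67). Beside these, complex IV had 0 and 2 of 7 called, with medians of -0.01 and 0.28. With scaling to library totals the counts on glucose were 3 for complex III, 2 for complex I, 1 for ATP synthase and 1 for complex IV. On fructose they were 0 in each of these lists. Of the genes named, CG3731, CG14482, RFeSP, CG12079, ND23 and ATPsyn-b kept their calls on glucose in 16 of 16 alternatives, and CG9140, ATPsyn-gamma and ATPsyn-Cf6 in 15. ND75 kept its call in 12, and was lost without CGD replicate 1, CGD replicate 2 or HGD replicate 2. CG4169 and blw kept theirs in 9, and were lost without any 1 of these 3 libraries or HGD replicate 3. On fructose CG12079 was called in 15, ATPsyn-Cf6 in 12 (lost without CFD replicate 1, CFD replicate 3 or HFD replicate 2) and ND23 in 10 (lost without any CFD library, HFD replicate 1 or HFD replicate 3). No test compared the lists.

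**Figure D4:**
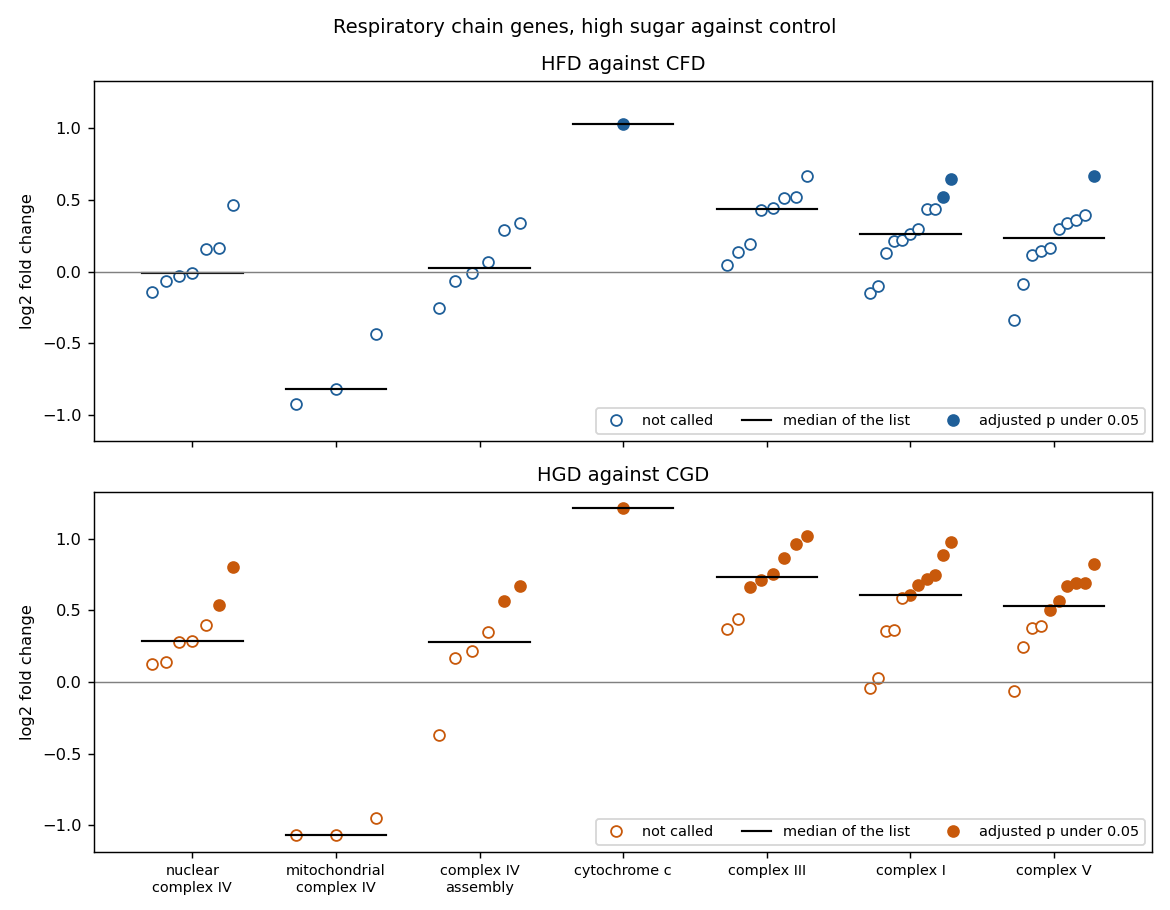
Log2 fold change of each gene (points) in 7 respiratory chain lists (horizontal axis) for HFD against CFD (upper panel) and HGD against CGD (lower panel), with the list's median as a line; filled points passed an adjusted p of 0.05. The nuclear-encoded complex IV subunits have medians of -0.01 and 0.28, the mitochondrially encoded ones lie below 0 in both panels, and cytochrome c lies at 1.03 and 1.22.

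Among 7 measured nuclear genes that control respiratory genes or mitochondrial DNA, 0 were called on fructose and 1, mtSSB, fell on glucose. Of all 9500 genes, 943 were called downward on fructose, 1225 on glucose and 1970 over both sugars. The single-stranded DNA-binding protein of mitochondrial DNA, mtSSB, had a log2 fold change of -0.84 on glucose (limma adjusted p = 0.0154). Its call was lost without CGD replicate 2 (adjusted p = 0.0582) or HGD replicate 1 (0.0557). The mitochondrial transcription factor mtTFB2 fell when both sugars were averaged (-0.53, adjusted p = 0.0279, called in 14 of 20 alternatives, and lost with limma-voom, adjusted p = 0.0508, and without CFD replicate 1, HFD replicate 3, CGD replicate 1, CGD replicate 3 or HGD replicate 2). Of 9 other mitochondrially encoded genes, 0 were called within a sugar, with median log2 fold changes of -0.73 on fructose and -0.79 on glucose. The fructose median rested on HFD replicate 1: without it the median was 0.34. Over both sugars mt:Cyt-b, the cytochrome b of complex III, fell (-0.93, adjusted p = 0.0309), a call kept in 14 of 21 alternatives and lost without CFD replicate 1, CFD replicate 2, HFD replicate 1, CGD replicate 1, CGD replicate 3, HGD replicate 2 or HGD replicate 3 (adjusted p up to 0.0840).

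Muscle, a tissue rich in complex IV, was marked more strongly in high-sugar libraries. The summed value of 17 muscle markers was 15294 to 27335 on CFD and 30660 to 39982 on HFD, and 8773 to 15833 on CGD and 27246 to 38049 on HGD, without overlap within a sugar. Of these 17 markers 5 rose on fructose and 14 on glucose (9.4% and 16.7% of all genes), with medians of 0.78 and 1.53, and 0 were at 0 in any library. CGD replicate 3, highest of its diet for all 7 subunits, had the lowest muscle sum (8773) and the highest fat body sum (3234130). Midgut markers (9 measured) were summed at 4280 to 14643 on CFD, 851 to 5644 on HFD, 4597 to 11409 on CGD and 1551 to 3579 on HGD. Hemocyte markers (5 measured) were summed at 2092 to 3450 on CFD, 4391 to 6408 on HFD, 1969 to 4593 on CGD and 5523 to 6841 on HGD; on glucose 4 fell and 1, Pxn, rose, and on fructose 3 fell and Pxn rose. Salivary gland markers (6 measured) overlapped on fructose (9098 to 30645 on CFD, 12866 to 14581 on HFD) and not on glucose (1899 to 7146 on CGD, 8017 to 14055 on HGD), where 1, Sgs3, rose. Of the midgut markers 5 fell on fructose and 4 on glucose. Beside the midgut and hemocyte counts, 943 of all 9500 genes were called downward on fructose and 1225 on glucose. The part of these tissues in the subunit values was not tested.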

How the data were processed

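RNA-seq was measured in fat bodies of 4 diet groups with 3 biological replicates each. Per the methods, the authors aligned reads with TopHat and Bowtie to Ensembl_R72 and counted genes with HTSeq; TopHat 1.3.2, Cufflinks 1.1.0, Bowtie 0.12.7 and dm3 stand in the submitters' processing notes, and which of these made the table was not given in the sources used here. The deposited values are a signal, read counts adjusted by the authors to a common library size separately for fructose and glucose libraries. They are not whole numbers; inverting the adjustment returned 100% of values within a tolerance of 0.0001. Glucose values were multiplied by 0.88. The test was limma 3.58.1 (R 4.3.3; eBayes with trend) on log2(value + 1), with all 12 libraries in 1 fit of 4 diets, two-sided, Benjamini-Hochberg over 9500 genes at 0.05. This replaced the exact count test of the methods, a choice made because the table holds no raw counts. On the recovered reads limma-voom was run as an alternative, and the exact test was not run. The script was tested on simulated data. Alternatives were pseudocounts of 0.1 and 5, no filter or a mean of at least 50, median-of-ratios scaling, library totals, no factor between sugars, limma-voom on recovered reads, a fit of only the diets compared, a replicate block, and each library left out. The filter removed 0 genes, so the fit with no filter repeated the main fit. The factor between sugars could hardly change comparisons of high sugar with control. Counts of alternatives include both of these settings. P-values set a difference of means against the spread between libraries of a diet, pooled over the 4 diets and moderated over all genes. The 7 subunits and all gene lists were chosen with earlier results of these data known. Of a list, up to 4 called genes with the largest changes were named, and mitochondrial subunits and paralogs always. Positions are from BDGP6.54, Ensembl release 115, matched by gene ID (9073 of 9500 IDs found). Reads in listed genes, which are fewer than all reads sequenced, ran from 3484911 to 11134936 per library. The median 95% interval over genes reached 0.47 on either side of a log2 fold change between diets. Protein and promoter sequences were not used here.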

Additional observations from a re-analysis of the deposited data

How the results depend on the processing

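CoIV kept its call on glucose and over both sugars under every alternative run, and no subunit that was called changed sign. On glucose the count of called subunits fell from 2 to 1, with CoVa lost, under scaling to library totals and when the fit held no other diets. With single libraries left out it ran from 1 to 3 on glucose, from 0 to 1 on fructose and from 1 to 3 over both sugars; on fructose CoIV was called only without HFD replicate 3 (log2 fold change 0.58, limma adjusted p = 0.0487). In every other comparison the count stayed at 0. Over all genes, 1836 were called on fructose and 2810 on glucose, and 1150 to 1664 and 1874 to 2774 with single libraries left out. Scaling to library totals gave 414 higher and 952 lower on fructose (893 and 943 with the deposited scaling) and 642 and 1363 on glucose (1585 and 1225). With a mean value of at least 50 the tested genes had median log2 fold changes of 0.07 and 0.14. Each library had 3484911 to 11134936 reads in listed genes.

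The replicate numbers were not treated as pairs in the main fit. Deviations of same-numbered libraries correlated at 0.05, 0.01 and 0.21 between CFD and HFD, and at -0.05, 0.02 and -0.04 between CGD and HGD. Between the sugars they ran from -0.36 (HFD and HGD, replicate 1) to -0.04 (CFD and CGD, replicate 2). Such correlations cannot show whether same-numbered libraries were prepared together. With the number as a replicate block the count of called subunits was 1 on glucose (CoIV; CoVa had an adjusted p of 0.0532), 0 on fructose and 1 over both sugars.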
